A study of Mus musculus with 10 samples.

Results

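Interleukins are secreted proteins through which leukocytes signal to each other and to stromal cells. Most act through receptors built from a ligand-binding chain and a shared signalling chain, which activate JAK kinases and STAT transcription factors, whereas the IL-1 and IL-17 families use adaptor proteins such as MyD88 and Act1. Several family members work as brakes, as decoy receptors or receptor antagonists. In lymphoid tumours these messages can come from the tumour cells themselves or from the T cells, macrophages, granulocytes, mast cells and stroma among them. C/EBPb is a transcription factor that was first described through its binding to the regulatory region of the IL-6 gene, and LIP is its short isoform, which lacks most of the activation domains.

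All non-control probes whose gene name in the array files is "Il" followed by a digit were taken, without regard to their signal. They were 127 probes for 85 genes of the 27827 gene names in the files, and by role 38 of the genes are ligands, 40 receptor chains, 6 inhibitors and 1 an enzyme. Single-colour Agilent arrays measured RNA of 1 spontaneous lymphoma per mouse, from 5 mice heterozygous for the C/EBPb LIP allele (+/L) and 5 wild-type mice (+/+), with no other treatment named. The +/L mice were 18 ± 4.06 months old (SD, n = 5) and the +/+ mice 24.9 ± 3.47 months (SD, n = 5). The labels used here do not name the strain. The RNA came from frozen tumour tissue and not from sorted cells, so that fewer cells of a type and less RNA per cell cannot be told apart. The numbering below follows the mice: 688, 20, 23, 517 and 866 are +/L, and 17, 40, 11, 19 and 101 are +/+.

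Some labels and arrays stood apart. The description labels of +/L mouse 866 and +/+ mouse 17 name a slide other than the one in their array files, each naming the slide on which the other array was scanned. Whether the 2 arrays were exchanged, which would swap their genotypes, was not tested, and values below follow the labels. The arrays of +/L mouse 20 and +/+ mouse 11, both labelled male, had Xist and neither Ddx3y nor Eif2s3y well above background, whereas male-labelled +/+ mouse 101 had both Y-linked transcripts and no Xist signal above background. Results are therefore also given without mice 20 and 11, and without mice 866 and 17. The labelled tissue was checked against lineage genes: all 8 B cell genes and all 9 T cell genes of the marker lists were well above background on all 10 arrays. The 75th percentile of the signal, to which each array was scaled, averaged 434 ± 129 on the 5 +/L arrays and 288 ± 61.1 on the 5 +/+ arrays (SD), and 48.0 to 64.7% of spots on +/L arrays and 52.9 to 66.7% on +/+ arrays were well above background. With 5 mice per genotype, the small number of arrays sets the precision of all values.

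The probes behind the results below are shown by the first 30 of their 60 bases, since the array reports on that stretch of the transcript and on no other. The first 8 are the probes with an unadjusted p under 0.05 between the genotypes, and the last is a second probe of Il8rb, which differed from the first in sign.
Il4: gtccaagtccacatcactgaaagacttcct
Il1f9: tttcatagatgaagaagcaacaaaataatg
Il1rl1: tgaccttatttgcttaccagttacaggtaa
Il17rb: gatatacccaaagctgggtaatgattatca
Il3ra: gcctcgtctgccccccagaggtgatgcctg
Il12rb2: ccagtgaactaccttcctagccatgaaggc
Il13ra2: tacatcttcttgaaaatcagtgtttgtcct
Il8rb (A_52_P559975): aagggtggggagttcgtgtagaagacacag
Il8rb (A_51_P148602): ggtggaggagtagaaaatggcaagtgacaa

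Coordinates are in mm9, the build of the files. The Il4 probe is at chr11:53426076-53426135 and the Il1f9 probe at chr2:24048444-24048503. The Il1rl1 probe is at chr1:40521952-40522011, the Il17rb probe at chr14:30809514-30809573 and the Il12rb2 probe at chr6:67242362-67242421. The Il3ra probe spans chr14:15183673-15184484, a stretch longer than the probe itself, and the Il13ra2 probe is at chrX:143818033-143818092. The pair of Il8rb probes lies at chr1:74206886-74206945 and chr1:74206323-74206382, with starts 563 bases apart. The files do not say in which exon or untranslated region a probe lies.

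Signal for interleukin genes was common in these tumours but far from universal. A probe was called detected on an array when at least 0.5 of its spots were well above background by the scanner software's flag. Of the 127 probes, 50 were detected on all 10 arrays, 34 on 3 to 9, 23 on 1 or 2, and 20 on 0. These shares, 66.1% of the interleukin probes on at least 3 arrays and 39.4% on all 10, stood beside 64.3% and 43.5% of all 41174 probes. By gene, 64 of 85 were detected on at least 3 arrays, 77 on at least 1, 55 on at least 5 and 38 on all 10.

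By count, more of the receptor genes than of the ligand genes were detected, a difference that was not tested. A gene was counted by its best-detected probe, and receptor genes such as Il1rap, Il17rd and Il2ra had more probes than most ligand genes. The part of probe number in the difference was not tested. Of the 40 receptor genes, 34 were detected on at least 3 arrays and 24 on all 10, against 25 and 10 of the 38 ligand genes. The ligands detected on 0 arrays were Il17a and Il20, Il23a, which with Il12b makes IL-23, and Il31. The receptor chains detected on 0 arrays were Il1rapl1, Il20ra and Il23r, and the one such inhibitor was Il1f5, the antagonist of the IL-36 receptor. The 21 genes without a probe detected on 3 arrays further included Il2, the T cell growth factor, Il3 and Il5, growth factors of myeloid cells and eosinophils, and Il9, Il17b, Il17c, Il17f and Il22. Where a probe of these 21 genes was not detected on an array, its signal there gives only an upper bound. No level or difference is given for these genes. The array of +/L mouse 23 had the fewest detected interleukin probes, 44.1% of 127, and those of +/L mouse 866 and +/+ mouse 17 the most, 67.7% each. Over all probes the shares were 47.08% for mouse 23, also the lowest, 63.97% for mouse 866 and 66.01% for mouse 17, the highest. The order of these arrays was thus much the same over all probes.

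**Figure D1:**
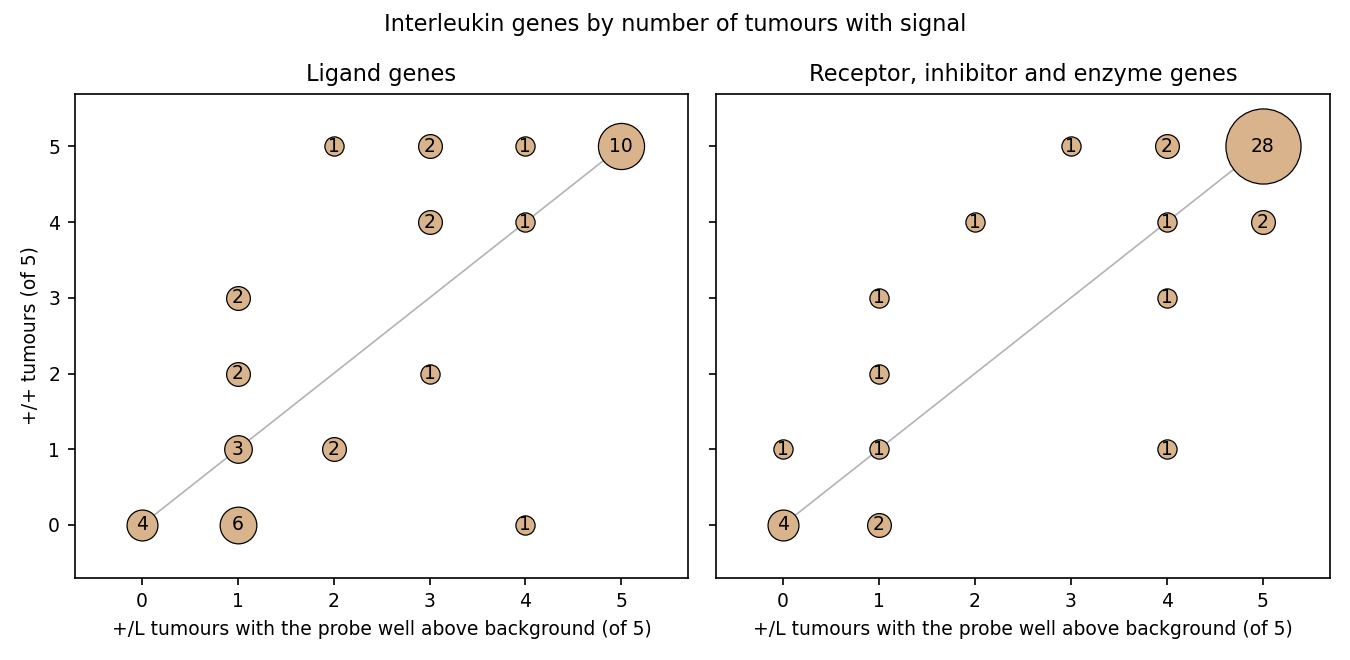
Number of interleukin genes by how many of 5 +/L tumours (horizontal axis) and how many of 5 +/+ tumours (vertical axis) had the gene's best-detected probe well above background, with ligands left and the other roles right. Circles grow with the number printed in them, and the 10 ligand genes at the upper right were detected in every tumour.

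The question the series addresses is how lymphomas of +/L mice differ in expression from those of +/+ mice. No interleukin or interleukin receptor passed the test. The 84 probes detected on at least 3 arrays, for 64 genes, were fitted with limma together with all 26410 such probes, and 0 of 84 reached an adjusted p under 0.05, as did 0% of all probes. The lowest limma adjusted p among the interleukin probes was 0.594, and among all probes 0.12. At an unadjusted p under 0.05 there were 8 of 84 probes, or 9.52%, against 7.96% of all probes. Of these, 6 were higher in +/L tumours (7.14% of the interleukin probes, against 3.29% of all probes) and 2 were lower (2.38%, against 4.67%). They include Il1f9, Il13ra2 and Il12rb2, which passed the filter mainly through the genotype in which they were higher. The counts by direction changed with the setting. For median scaling, slide as a block and the changes of filter or probe rule, the share of all probes that were higher is not given. Their counts of higher probes therefore have no share to be read against. Median scaling gave 8 probes at that p (all probes 7.86%), 6 of them higher. Slide as a block gave 9 (all probes 7.04%), 7 of them higher. Without the filter there were 9 of 127 (all probes 4.56%), 7 of them higher. With 1 probe per gene there were 9 of 64 (all probes 8.56%), 6 of them higher. Detection on at least 5 arrays gave 9 of 74 (all probes 8.27%), 5 of them higher. With normexp and quantile normalisation 7 probes had such a p (all probes 8.99%), 3 of them higher (all probes 3.26%). In the authors' table there were 6 (all probes 9.08%), 3 of them higher (all probes 3.55%), and with age as a covariate 6 (all probes 5.74%), 1 of them higher (all probes 2.32%). For single probes, the exact permutation test runs over the 252 divisions of 10 tumours into 5 and 5, and its smallest two-sided p is 0.0079. The groups did not overlap for 0 of 84 interleukin probes, against 1.79% of all probes.

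The direction of the interleukin probes as a group depended on the processing. Between +/L and +/+ tumours, 41 had a positive log2 difference and 43 a negative one, with a median of -0.02, and the median over all tested probes was 0.01. The sign of so small a median was not stable, since scaling to the median of detected probes gave 0.02 and slide as a block 0.05. The split was 31 higher and 53 lower with normexp and quantile normalisation, 33 and 51 in the authors' table, 26 and 58 with age as a covariate, and 80 and 47 among 127 probes without the filter. The median difference was -0.09 with normexp (all probes -0.02) and -0.05 in the authors' table (all probes -0.01). With age it was -0.36 (all probes 0.08), and without the filter 0.19 (all probes 0.18). The size of the difference without its sign had a median of 0.39, against 0.29 over all probes. The spread was also wider, with a median SD over the 10 tumours of 0.88 against 0.56 over all probes. Among ligands 13 probes were positive and 15 negative, and among receptor chains 25 were positive and 23 negative. The 50 probes detected on all arrays had a median difference of -0.22 (all probes so detected -0.05), and the 34 detected on 3 to 9 arrays had 0.19 (all probes so detected 0.17). The sign of the median therefore went with brightness in the interleukin probes and in all probes, beside the higher 75th percentile of the +/L arrays. The part of this in the differences of dim probes was not tested.

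**Figure D2:**
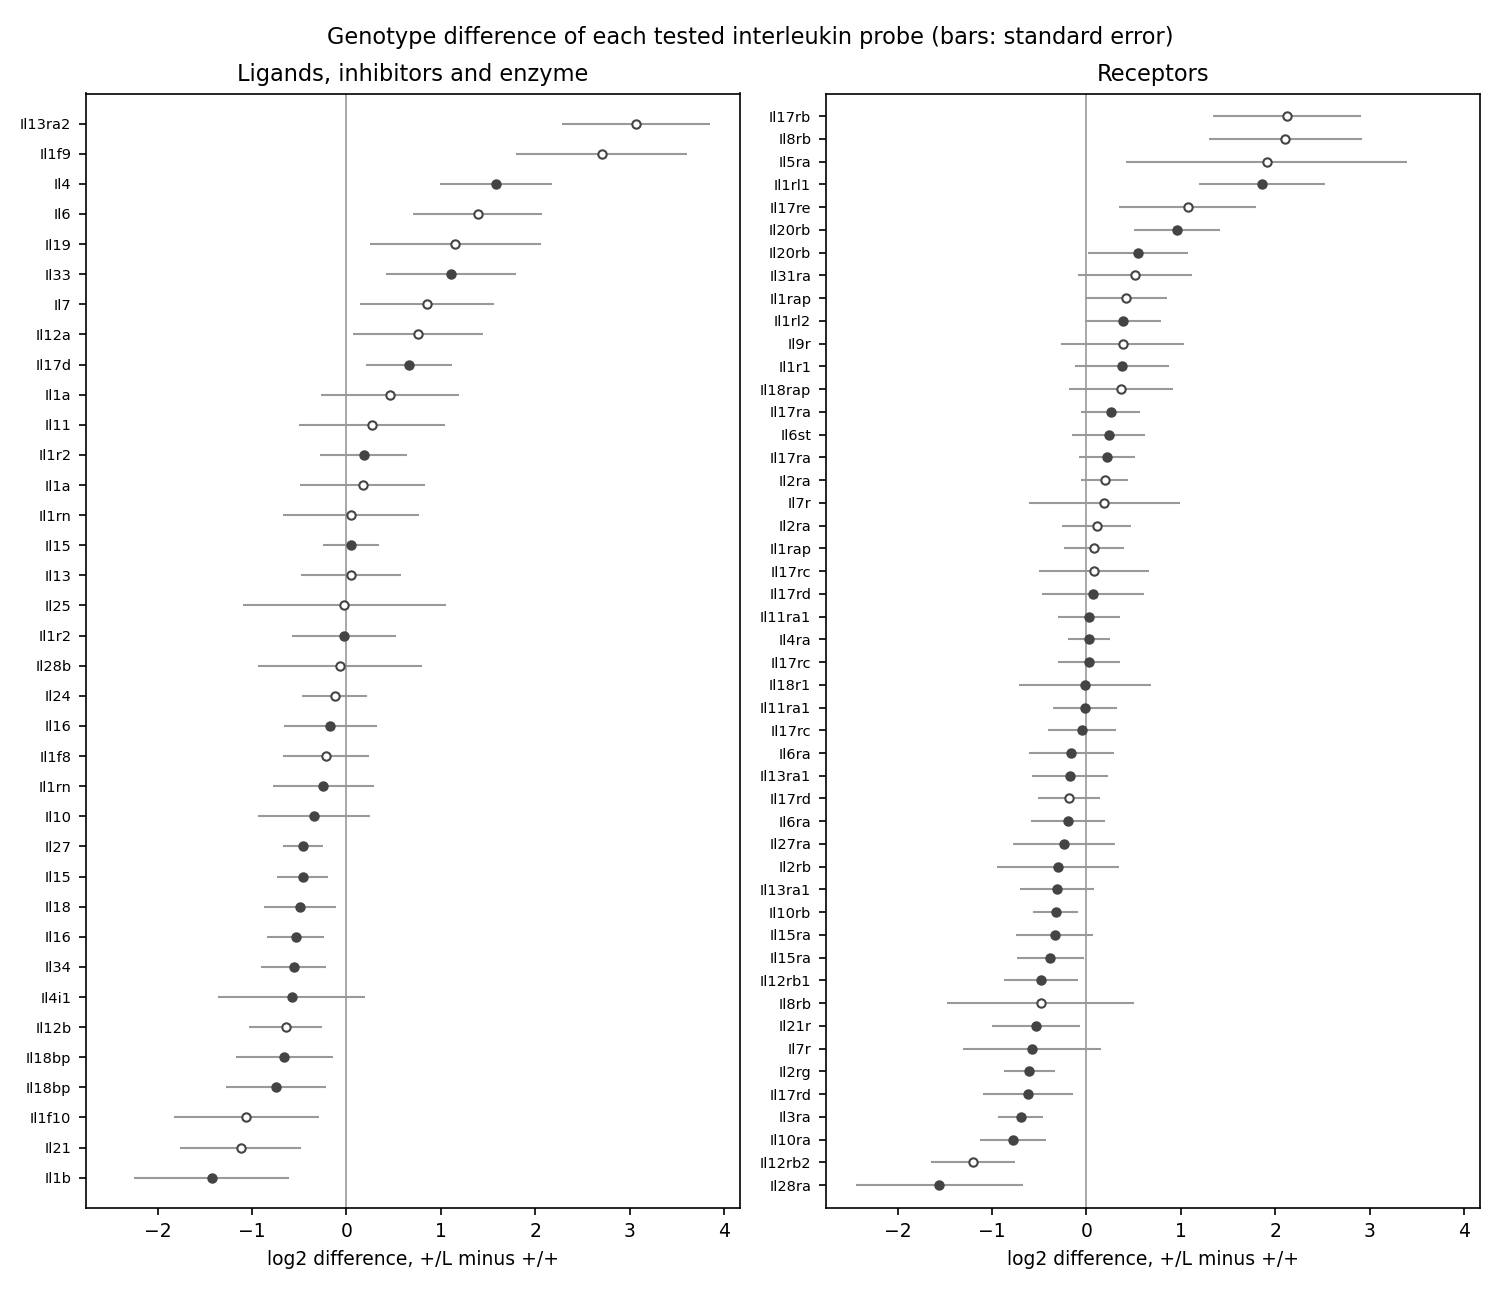
Log2 difference, +/L minus +/+, of each of the 84 tested interleukin probes with its standard error, ordered by size, with ligands, inhibitors and the enzyme left and receptor chains right. Filled points are probes well above background on all 10 arrays, open points on 3 to 9, and 41 lie above 0 and 43 below it.

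Among the ligands, Il4 and Il1f9 had an unadjusted p under 0.05. IL-4 drives type 2 T cell responses and antibody class switching in B cells. Il4, measured on 10 spots per array, had log2 signals over the array's 75th percentile of -0.82, -3.13, -0.93, -0.85 and 0.14 in the +/L tumours of mice 688, 20, 23, 517 and 866, against -2.78, -3.88, -1.66, -2.24 and -2.95 in the +/+ tumours of mice 17, 40, 11, 19 and 101. Every +/L tumour but that of mouse 20 lay above every +/+ tumour, so the groups overlapped through 1 tumour. The difference was 1.58 (SE 0.59, limma p = 0.0223, adjusted p = 0.596), and the exact permutation p was 0.0635. Within slides 1, 2 and 3 of the array files, Il4 was higher in +/L by 1.35, 0.77 and 2.73. Slide 2 held 1 +/+ array, that of mouse 11, whose labelled sex disagrees with its array. Slide 3 held 1 +/L array, that of mouse 866, whose slide label disagrees. Here and below, the values within slides 2 and 3 each rest on that single array for 1 genotype.

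Il1f9 encodes IL-36 gamma, an IL-1 family cytokine of epithelia and myeloid cells. It was well above background in 4 of 5 +/L tumours and 0 of 5 +/+ tumours. The values were -7.88, -2.53, -2.21, -4.28 and -4.50 in the +/L tumours of mice 688, 20, 23, 517 and 866, against -6.74, -7.17, -7.27, -7.34 and -6.40 in the +/+ tumours of mice 17, 40, 11, 19 and 101. The tumour of +/L mouse 688 was the lowest of all 10, and the other 4 +/L tumours were above all +/+ tumours. No +/+ array measured it, and the probe passed the filter through its +/L arrays alone, so its place among the tested probes already required it to be higher there. The signal averaged -4.28 ± 2.26 in +/L tumours and -6.98 ± 0.40 in +/+ tumours (SD, n = 5 each), which is given as a description, and the size of the difference was not stable, at 0.41 with normexp and 0.25 in the authors' table, in log2 units. Another Il1f9 probe was well above background on 0 of 10 arrays.

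The 3 ligands with described C/EBPb sites, Il6, Il1b and Il12b, did not move together. IL-6 supports plasma cells and the acute phase response. Il6 had -5.34, -3.68, -4.23, -3.88 and -3.20 in the +/L tumours of mice 688, 20, 23, 517 and 866, against -3.67, -4.21, -5.74, -7.29 and -6.38 in the +/+ tumours of mice 17, 40, 11, 19 and 101, and was well above background in 3 +/L and 2 +/+ tumours. Its difference was 1.39 (SE 0.68, limma adjusted p = 0.643), with within-slide values of -0.57, 1.68 and 3.64 that do not share a sign.

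IL-1 beta is an inflammatory cytokine of myeloid cells, and its transcript was well above background in all tumours. Il1b had 0.37, -1.44, 1.95, 1.2 and 2.53 in the +/L tumours of mice 688, 20, 23, 517 and 866, against 3.41, 4.21, 1.24, 1.19 and 1.71 in the +/+ tumours of mice 17, 40, 11, 19 and 101. The difference of -1.43 (SE 0.82, limma adjusted p = 0.682) was -4.34 within slide 1 and 0.33 and 1.08 within slides 2 and 3, so that it was negative on slide 1 alone (and -0.84 overall without mouse 20), which held +/L mice 688 and 20 and +/+ mice 17 and 40. Il12b, the p40 chain of IL-12 and IL-23, averaged -3.51 ± 0.69 over the +/L mice and -2.87 ± 0.60 over the +/+ mice (SD, n = 5 each), a difference of -0.64 (limma adjusted p = 0.695).

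The promoter of Il6 is printed because C/EBPb was described on it, taken from RefSeq on GRCm38.p6, plus strand, chr5:30012864-30013113, the 250 bases before the annotated start. The capitals mark a C/EBP-like match, TTGTGCAA, from 128 to 121 bases before the start.
Il6 promoter: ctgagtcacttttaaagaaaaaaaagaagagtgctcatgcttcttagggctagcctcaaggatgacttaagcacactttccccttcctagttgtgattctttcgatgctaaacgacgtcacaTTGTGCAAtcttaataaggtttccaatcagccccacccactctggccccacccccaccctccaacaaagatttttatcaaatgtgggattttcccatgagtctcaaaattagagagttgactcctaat

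This match is to TTGCNNAA or, on the other strand, TTNNGCAA. It is one of 4 forms that were searched on both strands with their matches in view, and it was picked after they had been seen. The 250-base windows of 68 interleukin genes could be matched to RefSeq. TTGCNNAA was in 20.6% of them (14 genes) and in 10.8% of all 27025 genes, the looser TTNNGNAA or TTNCNNAA, which includes every match of the other forms, in 45.6% against 40.3%, TTNCGNAA in 2.94% against 2.30%, and the full palindrome TTGCGCAA in 0% against 0.185%. Il1b had a match to the loosest form alone, 91 to 84 bases before the start, and Il12b had none of the 4 in this window. The expression of Il6, Il1b and Il12b did not pass the test in either direction, and the matches are a description of letters.

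**Figure D3:**
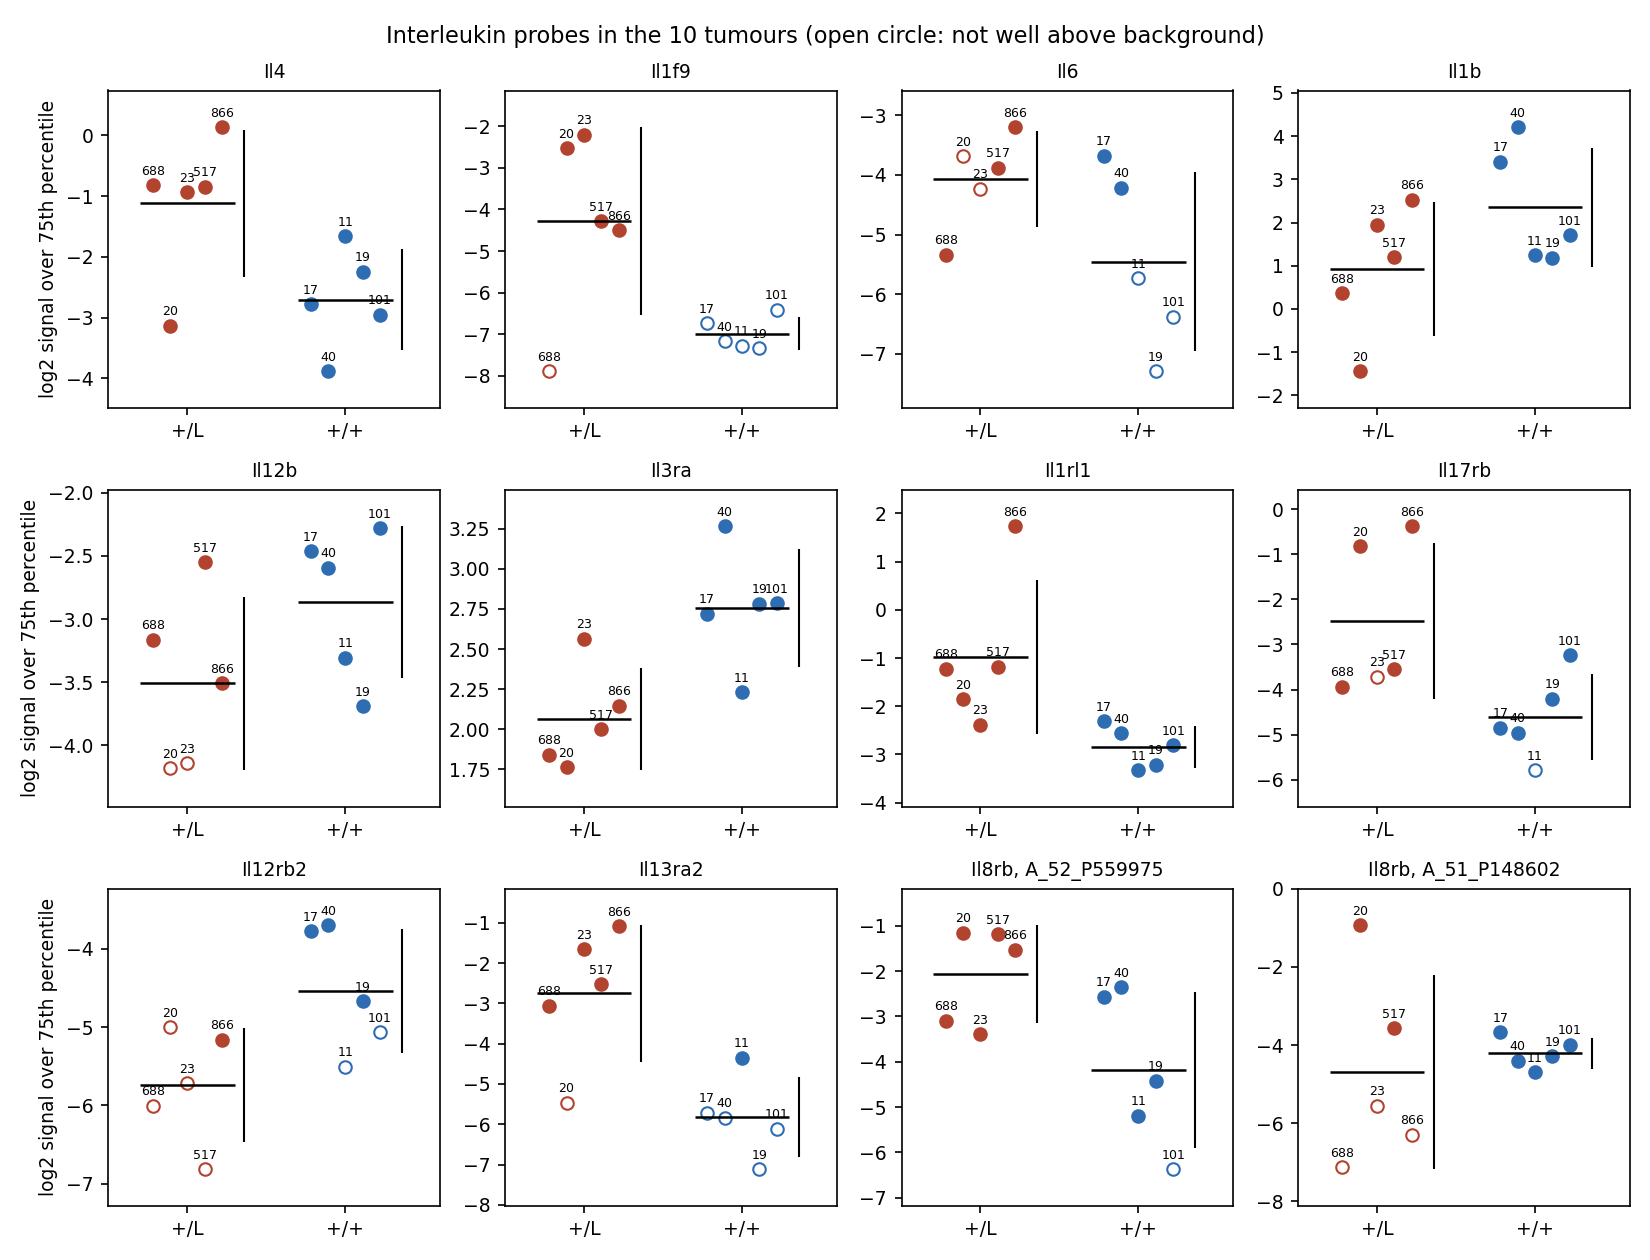
Log2 signal over the array's 75th percentile in each +/L tumour (red, left) and +/+ tumour (blue, right) for 12 probes, with mouse numbers, the mean (horizontal line) and the SD (vertical line, n = 5). Open circles were not well above background, and in each of the 12 panels the groups overlap.

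Of the receptor chains, Il1rl1, Il17rb and 1 probe of Il8rb were higher and Il3ra and Il12rb2 lower in +/L tumours at an unadjusted p under 0.05. Il1rl1 encodes ST2, the IL-33 receptor of mast cells and type 2 lymphocytes. It had -1.22, -1.86, -2.38, -1.18 and 1.74 in the +/L tumours of mice 688, 20, 23, 517 and 866, against -2.31, -2.56, -3.32, -3.22 and -2.81 in the +/+ tumours of mice 17, 40, 11, 19 and 101. The groups overlapped through +/L mouse 23 and +/+ mouse 17, and +/L mouse 866 stood highest. The difference was 1.86 (SE 0.66, limma adjusted p = 0.594, exact permutation p = 0.0159), within slides 0.89, 1.54 and 4.75, and leaving out mouse 866 alone gave 1.18. The other Il1rl1 probes were well above background on 2 and on 1 of 10 arrays and were not tested. With age as a covariate the difference of Il1rl1 was 0.15. Its ligand Il33, an alarmin of stromal cells, averaged 2.50 ± 1.59 over the +/L mice and 1.39 ± 0.66 over the +/+ mice (SD, n = 5 each; limma adjusted p = 0.703) and was also highest in mouse 866, at 4.48.

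Il17rb is the receptor chain for IL-25 and IL-17B. Its values were -3.94, -0.82, -3.71, -3.55 and -0.37 in the +/L tumours of mice 688, 20, 23, 517 and 866, against -4.85, -4.96, -5.79, -4.20 and -3.24 in the +/+ tumours of mice 17, 40, 11, 19 and 101. Mice 20 and 866 stood far above the rest, and the other 3 +/L tumours lay below +/+ mouse 101. The difference was 2.13 (SE 0.79, limma adjusted p = 0.596, exact permutation p = 0.0476), within slides 2.52, 2.16 and 3.34. A second Il17rb probe was well above background in 2 +/L tumours and 0 +/+ tumours, too few to test. Its ligand Il25 was well above background in 2 +/L and 1 +/+ tumours and differed by -0.02 (limma adjusted p = 0.997).

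Il3ra, the alpha chain of the IL-3 receptor, was the more even of the receptor results. It had 1.84, 1.76, 2.56, 2.0 and 2.15 in the +/L tumours of mice 688, 20, 23, 517 and 866, against 2.72, 3.27, 2.23, 2.78 and 2.78 in the +/+ tumours of mice 17, 40, 11, 19 and 101. Only +/L mouse 23 and +/+ mouse 11 overlapped. The difference was -0.70 (SE 0.24, limma adjusted p = 0.594, exact permutation p = 0.0159), and it lay between -0.82 and -0.58 with the other background correction, the authors' value table, age as a covariate, or either pair of mice left out. Within the slides it was -1.19, 0.05 and -0.64, so slide 2, with +/L mice 23 and 517 and +/+ mouse 11, did not show it.

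Il12rb2, the signalling chain of the IL-12 receptor on type 1 T cells and NK cells, was well above background in 1 +/L and 3 +/+ tumours. It had -6.00, -5.00, -5.71, -6.81 and -5.16 in the +/L tumours of mice 688, 20, 23, 517 and 866, against -3.77, -3.70, -5.51, -4.67 and -5.06 in the +/+ tumours of mice 17, 40, 11, 19 and 101. The +/+ tumours of mice 17 and 40 were the highest. The signals averaged -5.74 ± 0.72 over the +/L mice and -4.54 ± 0.79 over the +/+ mice (SD, n = 5 each; limma adjusted p = 0.596). The probe passed the filter through its 3 +/+ arrays, and 4 of the +/L values are at background, so the difference of -1.20 is a description of signals. The ligand chains Il12a and Il12b and the other receptor chain, Il12rb1, had differences of 0.76, -0.64 and -0.48, none of which passed.

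Il8rb is the older name of Cxcr2, the receptor through which neutrophils follow CXC chemokines such as IL-8 in humans. On one probe it had -3.09, -1.16, -3.39, -1.18 and -1.53 in the +/L tumours of mice 688, 20, 23, 517 and 866, against -2.57, -2.35, -5.19, -4.42 and -6.37 in the +/+ tumours of mice 17, 40, 11, 19 and 101, a difference of 2.11 (SE 0.81, limma adjusted p = 0.596, exact permutation p = 0.0476). On the other it had -7.12, -0.93, -5.56, -3.57 and -6.29 in the same +/L tumours, against -3.67, -4.40, -4.69, -4.29 and -3.99 in the +/+ tumours, a difference of -0.48 (SE 0.99, limma adjusted p = 0.925). The probes thus differed in sign as scaled here, and both were highest in +/L mouse 20. The first was well above background in 5 +/L and 4 +/+ tumours, the second in 2 +/L and 5 +/+ tumours. With normexp and in the authors' table the second probe differed by 0.09 and 0.10, so the signs did not differ there. The neutrophil marker list has 8 genes, Cxcr2 among them, which was not counted because the array files name it Il8rb. The 6 genes that were tested under their listed names were all higher in +/L tumours. Their summed level was 2.66 to 80.1 times the array's 75th percentile in +/L and 0.546 to 18.8 in +/+ tumours. The scores of these 6 genes were -1.39 to 3.22 in +/L and -3.37 to 1.66 in +/+ tumours. They were lowest in +/+ mice 11 and 101, and the part of neutrophils in the Il8rb result was not tested.

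Il13ra2, which binds IL-13 without signalling as its partner chain does and is counted here among the inhibitors, had the largest difference of the 84 probes as scaled here, though not with normexp or in the authors' table, where Il28ra and Il1b, among others, differed more. It had -3.05, -5.46, -1.65, -2.52 and -1.08 in the +/L tumours of mice 688, 20, 23, 517 and 866, against -5.72, -5.83, -4.35, -7.11 and -6.11 in the +/+ tumours of mice 17, 40, 11, 19 and 101. It was well above background in 4 of 5 +/L tumours and 1 of 5 +/+ tumours, and only +/L mouse 20 fell among the +/+ values. The difference in signal was 3.07 (limma adjusted p = 0.594), and 1.52, 2.26 and 5.53 within slides. The probe passed the filter through its +/L arrays, and 4 of the +/+ values are at background, so the difference is a description of signals. Without mice 20 and 11 it was 4.12. Il13 and both probes of Il13ra1, the signalling chain for IL-13, differed by 0.05, -0.31 and -0.17.

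The other inhibitors did not pass. Il18bp, which neutralises IL-18, differed by -0.74 and -0.66 on its probes (limma adjusted p = 0.74 and 0.769). Il1rn, the IL-1 receptor antagonist, differed by 0.05 and -0.24, and Il1r2, the IL-1 decoy receptor, by -0.02 and 0.18.

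The size of these differences changed with the processing, as the plot of the named probes under other settings shows. Which step changed it was not tested, since the normexp setting also changed the normalisation. With normexp background correction and quantile normalisation the difference of Il13ra2 was 0.91, and from the authors' deposited values 0.61. For Il1f9 the same settings gave 0.41 and 0.25, for Il17rb 0.78 and 0.60, for Il1rl1 1.0 and 0.86, for Il4 0.83 and 0.68, and for Il8rb 0.73 and 0.53. Il6 came to 0.15 and 0.04 and Il12rb2 to -0.28 and -0.16. Each kept its sign and none passed. Age as a covariate gave 1.1 for Il17rb, 0.87 for Il4, 1.2 for Il8rb and 0.70 for Il6, and +/L mice were the younger, so that age and genotype are only partly separated. In the other direction, away from 0, Il1f9 was 3.31, Il12rb2 -1.88 and Il1b -2.77 with age. Without mice 20 and 11, Il17rb was 1.42, Il4 2.35, Il1f9 2.19, Il1rl1 1.96, Il8rb 1.63 and Il12rb2 -1.62. Without mice 866 and 17, Il13ra2 was 2.68, Il1f9 2.82, Il17rb 1.54, Il1rl1 1.32, Il4 1.25, Il8rb 2.38 and Il12rb2 -1.15.

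**Figure D4:**
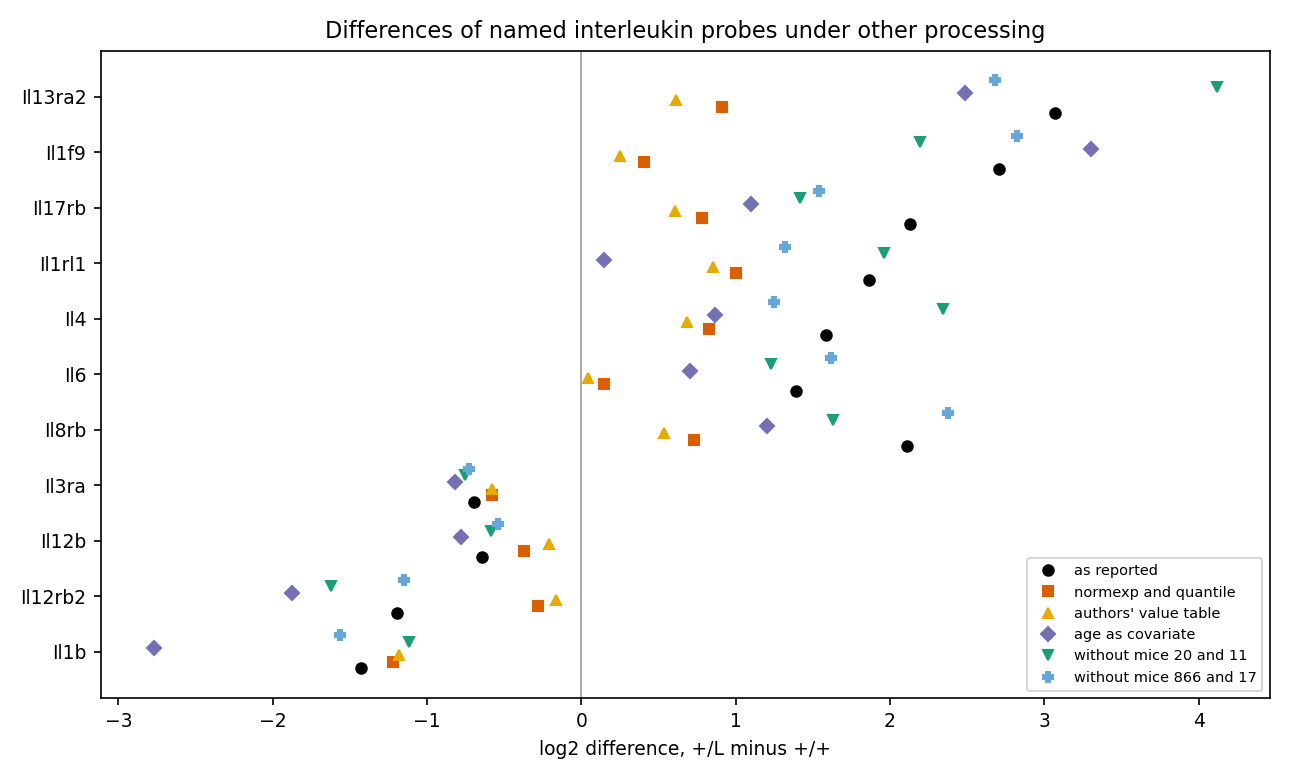
Log2 difference, +/L minus +/+, of 11 named interleukin probes (A_52_P559975 for Il8rb) as reported and under 5 other settings. All points of a probe lie on the same side of 0, and normexp with quantile normalisation and the authors' table lie nearest to 0 for Il13ra2, Il1f9, Il17rb and Il12rb2.

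Leaving out the arrays in doubt moved the counts for the interleukin probes and for all probes. Without mice 20 and 11, 15 of 84 interleukin probes had an unadjusted p under 0.05, against 13.8% of all probes, and the groups of 4 did not overlap for 9, or 10.7%, against 9.51% of all probes. These 9 were probes of Il4, Il13ra2, Il3ra, Il12rb2, Il2rg, Il15, Il28b and Il17rd, 2 higher and 7 lower in +/L. Without mice 866 and 17, 9 probes had an unadjusted p under 0.05, against 6.79% of all probes, and 1, for Il1rl1, did not overlap, against 5.08% of all probes. Leaving out single +/L tumours, 13 probes had such a p without mouse 688 (all probes 9.64%), 15 without mouse 20 (all probes 12.7%) and 14 without mouse 23 (all probes 8.72%), and 4 did not overlap without mouse 20 (all probes 4.99%). No interleukin probe passed the adjusted test in these cases.

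Some members of the common gamma chain family varied widely between tumours and others little. Its median SD over the 10 tumours was 0.74, below the 0.88 of all interleukin probes, and Il4ra, the IL-4 receptor chain, had an SD of 0.28 and a difference of 0.03. Of its 14 genes 12 were tested, on 16 probes, 8 higher and 8 lower, with a median difference of -0.14. Il2rg, the shared chain of the receptors for IL-2, IL-4, IL-7, IL-9, IL-15 and IL-21, had 2.90, 1.61, 2.86, 2.26 and 2.78 in the +/L tumours of mice 688, 20, 23, 517 and 866, against 3.01, 3.06, 2.77, 3.30 and 3.29 in the +/+ tumours of mice 17, 40, 11, 19 and 101 (difference -0.60, limma adjusted p = 0.627). Il2rb, the chain shared by the IL-2 and IL-15 receptors of T and NK cells, ran from 1.68 in +/L mouse 20 to 5.49 in +/+ mouse 19. Il7r, the IL-7 receptor of T cells and lymphoid precursors, ran from -0.48 in mouse 20 to 3.76 in mouse 19 on one probe (A_51_P196695), which differed by -0.58, whereas another (A_52_P555957) differed by 0.19. Il21, the T follicular helper cytokine, was also lowest in mouse 20 (-5.53) and highest in mouse 19 (-1.03), and Il21r was lowest in mouse 20, at 0.77. The T cell marker score was lowest in the same mouse 20, at -1.89, and highest in the same mouse 19, at 1.51, and its part in these values was not tested.

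The tumour of +/L mouse 20 stood apart in other families too. Il4i1, an amino acid oxidase secreted by B cells and macrophages, had 5.36, 1.35, 6.13, 5.43 and 4.48 in the +/L tumours of mice 688, 20, 23, 517 and 866, against 4.20, 5.29, 5.38, 5.15 and 5.64 in the +/+ tumours of mice 17, 40, 11, 19 and 101. Mouse 20 was thus the exception, and the difference of -0.58 (limma adjusted p = 0.88) became 0.28 without mice 20 and 11. Il5ra, the IL-5 receptor chain of eosinophils and B-1 cells, had 2.38 in mouse 20, against -7.28 to -3.06 in +/+ tumours, and its difference of 1.91 became -0.03 without mice 20 and 11. Il27ra and Il18r1 were lowest in mouse 20, at -0.86 and -1.39. Of the 84 probes 22.6% were highest and 26.2% lowest in this tumour, against 28.3% and 14.7% of all tested probes, and its plasma cell score of 2.15 was the highest of the 10.

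Other tumours had patterns of their own. On the array labelled +/L mouse 866, the youngest at 11 months and one of the 2 whose slide labels disagree, 19.0% of the interleukin probes were highest, against 7.01% of all probes, and the median deviation of an interleukin probe from its mean was 0.43, against -0.08 for all probes. Il11, a stromal cytokine of the IL-6 family, had -1.54 there and at most -5.20 in the remaining +/L tumours, and Il7, Il33, Il31ra and Il1rl1 were also highest there. This tumour had the highest macrophage, neutrophil and stromal scores, 1.40, 3.22 and 1.63, and the lowest B cell score, -1.88. In +/+ mouse 11, 19.0% of the interleukin probes were lowest, against 10.2% of all probes, and its neutrophil, mast cell and stromal scores of -3.37, -1.78 and -1.49 were the lowest of the 10. In +/L mouse 688, 0% of the interleukin probes were highest, against 7.37% of all probes. Whether the cell mix had a part in these patterns was not tested.

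By family, the medians stayed near 0 while single members ranged widely. The 21 tested probes of the IL-1 family, 12 higher and 9 lower in +/L, ran from -1.43 for Il1b to 2.70 for Il1f9. The 12 of the IL-17 family, 8 higher and 4 lower, ran from -0.62 for Il17rd to 2.13 for Il17rb, and both had a median of 0.08. The 14 of the IL-6 and IL-12 family, 6 higher and 8 lower, had a median of -0.09 and ran from -1.20 for Il12rb2 to 1.39 for Il6. The 6 of the beta common and IL-13 family, 3 higher and 3 lower, had a median of -0.06. Each family thus held members on both sides of 0, apart from Il16, Il34 and Il4i1, which belong to none of them and whose 4 probes were all lower in +/L, with differences of -0.58 to -0.17.

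**Figure D5:**
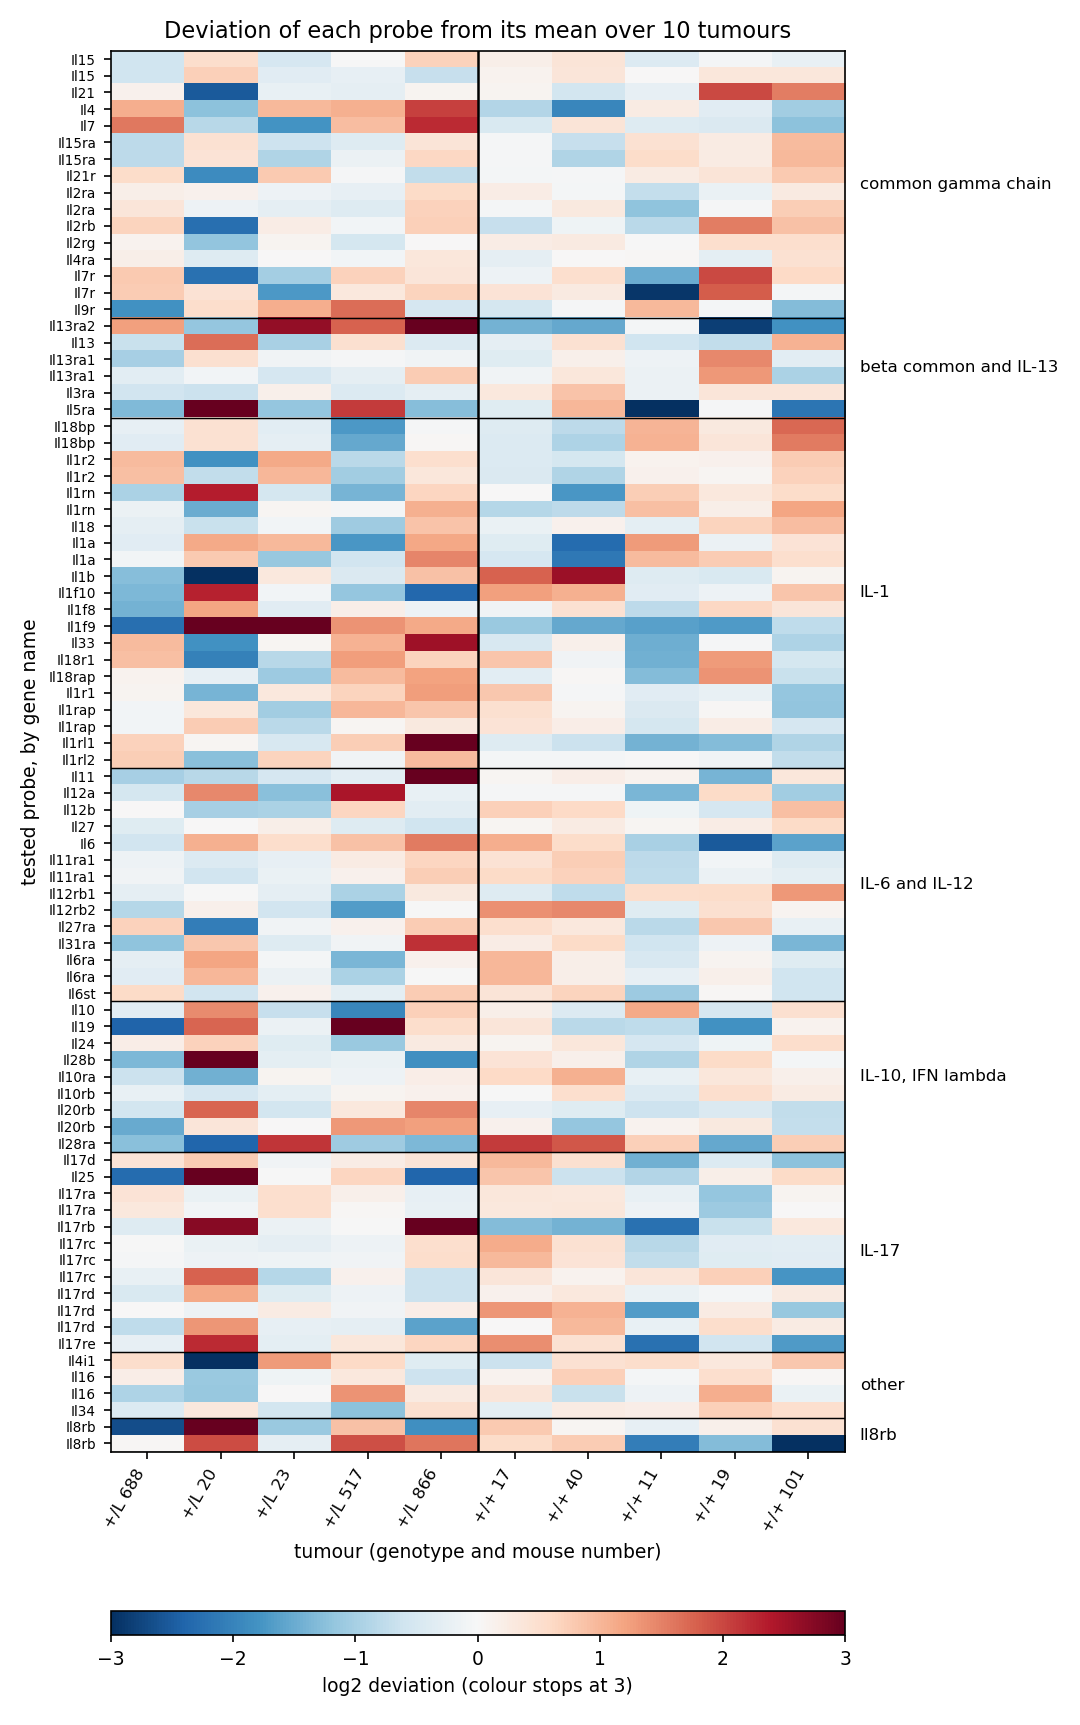
Deviation of each of the 84 tested interleukin probes (rows, by family) from its mean over the 10 tumours, in log2 units, with +/L tumours left of the line and +/+ tumours right of it. Mouse 20 has both strong reds and strong blues, for example at Il5ra and Il4i1, and mouse 866 is red at Il11, Il33 and Il1rl1.

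Mast cell marker values are given beside Il1rl1, Il17rb and Il4, which mast cells or type 2 lymphocytes express. Other genes of type 2 responses differed by 0.05 for Il13, 0.03 for Il4ra, -0.02 for Il25, 1.11 for Il33 and 3.07 for Il13ra2. Of these, Il25 was well above background on only 3 arrays and Il13ra2 on 5. The mast cell list's 6 tested genes were all higher in +/L tumours, with a summed level of 1.03 to 8.41 times the array's 75th percentile in +/L and 0.442 to 1.40 in +/+ tumours and 3 to 6 genes well above background on an array, while Ms4a2 and Mcpt8 were detected on too few arrays to test. By tumour the scores were 2.46, 2.48, -0.37, -1.03 and 0.81 in +/L mice 688, 20, 23, 517 and 866, against 0.12, -0.23, -1.78, -1.45 and -1.01 in +/+ mice 17, 40, 11, 19 and 101. Mice 20 and 688 were highest for the list, and mouse 866 came next. For Il1rl1, Il17rb and Il4, mouse 866 was highest. Mouse 20 came second for Il17rb, at -0.82, and mouse 688 for Il4, at -0.82. For Il1rl1 the second was mouse 517, at -1.18, whose list score of -1.03 was the lowest of the +/L tumours. Mouse 20 was the lowest +/L tumour for Il4. The part of mast cells in these results was not tested.

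In the IL-10 and interferon lambda family, 0 of 9 tested probes had an unadjusted or adjusted limma p under 0.05. Among Il16, Il34 and Il4i1 it was 0 of 4. The shares of all probes were 7.96% unadjusted and 0% adjusted, so a count of 0 in groups this small says little about them. Of the IL-10 and interferon lambda genes, 8 of 13 were tested, with 3 probes higher and 6 lower. Il10ra, the ligand-binding chain for the anti-inflammatory IL-10, averaged 3.40 ± 0.67 over the +/L mice and 4.17 ± 0.48 over the +/+ mice (SD, n = 5 each), a difference of -0.78 (SE 0.35, limma adjusted p = 0.627) that was -1.87 within slide 1 and 0.19 and -0.05 within slides 2 and 3. Il28ra, now Ifnlr1 and the receptor of interferon lambda, had -0.90, -2.03, 2.50, -0.72 and -0.99 in the +/L tumours of mice 688, 20, 23, 517 and 866, against 2.45, 2.22, 1.05, -1.18 and 1.09 in the +/+ tumours of mice 17, 40, 11, 19 and 101, a difference of -1.56 (limma adjusted p = 0.682). One tumour of each genotype, mouse 23 and mouse 19, lay with the other group's values. Il19, a relative of IL-10, was well above background in 2 +/L and 1 +/+ tumours and differed by 1.16 (limma adjusted p = 0.769), by 0.50 without mouse 517, by 1.90 without mouse 688, and by 0.16 and 0.11 with normexp and in the authors' table. Il16, a T cell chemoattractant, differed by -0.54 and -0.17 on its 2 probes (limma adjusted p = 0.678 and 0.945).

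Probes of the same gene gave a second view of the error. Of 18 genes with more than 1 tested probe, 8 had probes of opposite sign: Il11ra1, Il15, Il17rc, Il17rd, Il1r2, Il1rn, Il7r and Il8rb. The count was 3 without mouse 101, 4 without mouse 40 and 5 without mouse 23. Apart from Il8rb, the differences of these probes lay between -0.62 and 0.19. Both probes of Il11ra1 are also listed for Il11ra2 and related gene models, so their transcripts cannot be told apart.

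Partner genes outside the naming rule did not pass either. Of 10 tested receptor chains and cytokines of the same families without an "Il" symbol, 3 were higher and 7 lower, and the one of lowest p was Csf2ra, the GM-CSF receptor chain, at 4.13 ± 0.75 over the +/L mice and 5.31 ± 0.45 over the +/+ mice (SD, n = 5 each; limma adjusted p = 0.594). Of 16 JAK-STAT genes 3 were higher and 13 lower in +/L, with a median difference of -0.42. The median was 0.01 over all tested probes and -0.05 over probes detected on all 10 arrays, as these 16 were. Ptpn6, the phosphatase SHP-1 that dampens cytokine receptors, was at 4.92 ± 0.23 over the +/L mice and 5.83 ± 0.47 over the +/+ mice (SD, n = 5 each; limma adjusted p = 0.594). Of the 16 genes, 0 passed. Of 8 MyD88 and IRAK genes 3 were higher and 5 lower, with Irak2 of lowest p (difference -0.45, limma adjusted p = 0.66).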

How the data were processed

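RNA of 10 lymphomas (5 +/L, 5 +/+) was measured on 1 single-colour Agilent array each, with 41174 non-control probes. Per the file headers, Agilent's Feature Extraction software (version 10.5.1.1) gave each spot's intensity and its flag for signal well above background. Log2 values from the authors' deposited series table served only as an alternative. How they were normalised is not given in these sources.

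Each value is the log2 processed signal after subtraction of that array's 75th percentile over non-control spots, with outlier spots left out and spots of a probe averaged. Probes well above background on at least 3 arrays were fitted with limma 3.58.1 (R 4.3.3), with genotype as the term and Benjamini-Hochberg adjustment over 26410 probes, tested on simulated data. Scores of marker lists are mean deviations from the gene means. Named were members with an unadjusted p under 0.05, per family the lowest p and the 2 widest spreads, and probes detected in 1 genotype alone. Il6, Il1b and Il12b were added, and, for probes of opposite sign, Il8rb. Il11ra1, Il15, Il17rc, Il17rd, Il1r2 and Il1rn, also with probes of opposite sign, were not, so the sign counts of named probes leave them out. Members and lists were chosen with earlier results of these data known, and the Il8rb pair and the genes described by tumour after their values were seen. Alternatives changed background correction, scaling, filter, probe rule, covariate, slide block and the arrays included. Of the 127 probes, 103 were matched to RefSeq by accession and 24 by symbol.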

Additional observations from a re-analysis of the deposited data

Results flagged for a closer look

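Among the named probes, 44 groups of 5 tumours were examined for a single tumour far from the others, and 4 were found. Chance gives about 1 in 20 groups for probes taken at random, a rate that does not apply here, since the probes concerned were named for their wide spread. Il28ra was at 2.50 in +/L mouse 23, against -2.03 to -0.72 in the other +/L tumours. Il11 was at -1.54 in +/L mouse 866, against -5.88 to -5.20 in the rest of that genotype, and it was the one +/L tumour with Il11 well above background. Il11 was at -6.28 in +/+ mouse 19, against -4.80 to -4.53 for the remaining +/+ mice, and the Il7r probe A_52_P555957 was at -5.54 in +/L mouse 23, against -3.50 to -3.06 in the other +/L tumours. Both of these last values were not well above background.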

How the results depend on the processing

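In each of the alternatives run, 0 interleukin probes reached an adjusted p under 0.05, and the lowest adjusted p of a named probe was 0.188. Of 454 values of the 22 named probes under alternatives, 423 kept their sign and 31, from 7 probes, did not. The reversed values were, with normexp and quantile normalisation, 0.14 for Il25, -0.17 for Il7r and 0.0857 for Il8rb (A_51_P148602). In the authors' deposited value table they were 0.10, -0.12 and 0.10 for the same probes, and with median scaling 0.0162 for Il25. With age as a covariate they were 1.33 for Il25, -1.17 for Il11, -1.22 for Il7r and 0.65 for Il8rb. Without mice 20 and 11 they were -0.0293 for Il5ra, -0.60 for Il7r, 0.0292 for Il16 (A_52_P558502) and 0.28 for Il4i1. Without mice 866 and 17, chosen after seeing the data, they were 0.77 for Il25, -0.48 for Il11 and 0.0508 for Il8rb. Leaving out 1 tumour, the ranges were -1.03 to 0.57 for Il25, -0.53 to 0.56 for Il11, -0.52 to 0.67 for Il7r, -0.53 to 0.0911 for Il16, -0.98 to 0.22 for Il4i1 and -1.42 to 0.12 for Il8rb. The count at an unadjusted p under 0.05 was 7 to 15 and the count without overlap 0 to 4 on leaving out 1 tumour, the highest without mouse 20 in both cases; the first count was also 13 without mouse 688 and 14 without mouse 23, beside 12.7% of all probes without mouse 20, 9.64% without 688 and 8.72% without 23. Without mice 20 and 11 these counts were 15 and 9, and without mice 866 and 17 the count without overlap was 1. Adjusting for age took the median difference to -0.36 (all probes 0.08), and without that adjustment it ranged from -0.19 to 0.08 on leaving out 1 tumour. Genes detected numbered 38 when all 10 arrays were required. The count of genes with probes of opposite sign was 2 with normexp and in the authors' table, 5 with age or without either pair of mice, and 3 to 8 on leaving out 1 tumour. Leaving out 1 tumour also moved Il1b (-1.83 to -0.84), Il19 (0.50 to 1.90), Il10ra (-0.93 to -0.52) and Il16 A_51_P372702 (-0.68 to -0.33). The cause of these changes was not tested. No paired analysis was possible because the tumours carry separate mouse numbers. Dim probes limit the sizes of differences, since most named probes were near background on some arrays.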
